A study of Mus musculus with 20 samples.

Results

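Mal is 1 of the 12701 genes counted in the proximal colon (PC) of mice fed the Total Western Diet (TWD) with or without resistant potato starch (RPS), and its level in each of 20 libraries is described here beside the genes that share its pattern. The gene was found in the table by its Ensembl identifier, ENSMUSG00000027375, and it was chosen by its own readout, the difference in its level between diets. For that reason its levels and fold changes are a description and carry no test. All animals were C57BL/6 mice that received the TWD, a rodent diet built to resemble average American intake, for 6 weeks after weaning. The 5 mice of the 0% RPS group then stayed on the TWD alone for 3 more weeks, and the other 3 groups of 5 mice received the TWD with 2, 5, or 10% RPS over the same time. RNA came from a segment of the PC without sorting of cells. In such bulk RNA more cells of a type cannot be told apart from more RNA per cell.

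Mal encodes a small membrane protein with 4 membrane-spanning segments, the founding member of the MAL family within the wider MARVEL group of proteins. It associates with cholesterol- and sphingolipid-rich membrane (lipid rafts) and takes part in carrying proteins to the apical surface of polarized epithelial cells. It was first described in T lymphocytes and is also known from the myelin of Schwann cells and oligodendrocytes and from stratified epithelium. Markers of each of these cell types are set beside it below.

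In the GENCODE annotation of assembly GRCm39 the gene lies on chromosome 2 from 127475142 to 127498615 on the minus strand, a span of 23474 bases. It has 8 annotated transcripts, of which 6 are protein-coding. The canonical transcript has 4 exons, 2782 spliced bases, and 459 coding bases (153 codons). No other annotated gene overlaps the locus, and 0 of 3101 windows of 50 bases in its exons, the length of 1 read, occur in the exons of another gene. The 250 bases before the annotated start of Mal are printed here because they are the stretch nearest to the start of the gene whose level varied, and those of Mall because it is the closest relative and lies next to Mal on the same chromosome and strand. Both are given on the strand of the gene in the 5′ to 3′ direction, at chr2:127498616-127498865 and chr2:127571857-127572106 of GRCm39.
Mal: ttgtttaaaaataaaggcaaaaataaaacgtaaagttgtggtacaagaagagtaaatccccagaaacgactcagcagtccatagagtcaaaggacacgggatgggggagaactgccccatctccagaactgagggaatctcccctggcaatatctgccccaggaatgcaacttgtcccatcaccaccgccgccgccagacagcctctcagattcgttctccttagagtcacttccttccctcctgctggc
Mall: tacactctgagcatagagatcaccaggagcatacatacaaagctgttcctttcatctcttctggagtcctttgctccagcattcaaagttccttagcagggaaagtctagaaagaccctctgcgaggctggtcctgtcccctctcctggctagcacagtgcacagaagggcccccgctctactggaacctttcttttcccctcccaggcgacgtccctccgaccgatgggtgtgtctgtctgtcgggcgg
Capitals would mark a match to 1 of 3 short motifs searched on both strands, and neither window held one. The motifs were the interferon-response core GAAANNGAA, the STAT palindrome TTCNNNGAA, and the AP-1 site TGANTCA, which stood in 6.82, 6.36, and 4.57% of the windows of this length before 12681 genes of the table. The absence of these letters says nothing about binding of a factor. The GC content of the Mal window was below the median of 56.4% over all windows.

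Every library on a starch diet held more Mal RNA than every library on the TWD alone. Levels are given as normalized counts, which are read counts divided by the size factor of the library. In the 0% RPS group the 5 libraries, in the order of their replicate numbers, held 1144, 1017, 971, 843, and 1009 normalized counts. On 2% RPS they held 2211, 1672, 1274, 1361, and 3829. The 0% group was narrow, with a highest library 1.36 times the lowest, while replicate 5 of the 2% group stood well above the other 4 of its diet. On 5% RPS the values were 4094, 5512, 4957, 1380, and 1574, so that replicates 1, 2, and 3 were the highest of their diet and replicates 4 and 5 lay within the range of the 2% group. On 10% RPS they were 2378, 2376, 2460, 2639, and 2286, the narrowest group of the 4, with a highest library 1.15 times the lowest. The raw counts behind these values ran from 973 to 5686, for which counting error alone gives an SD of 1.33 to 3.21%.

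**Figure D1:**
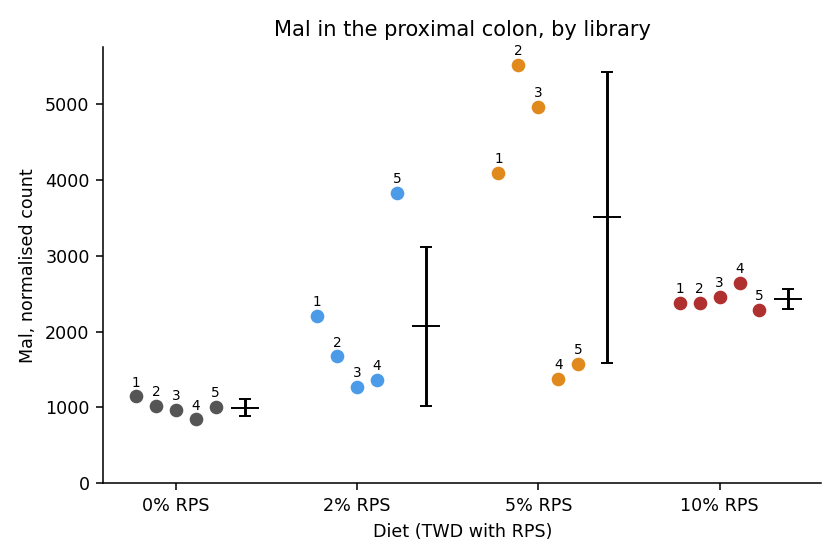
Normalized count of Mal (vertical axis, from 0) in each of the 20 libraries by diet; points carry the replicate number, and the bar beside each group is its mean with SD (n = 5). The 15 starch libraries sit between 1274 and 5512, all above the highest 0% RPS library at 1144, and the 10% group is the tightest.

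Mean levels were 996.9 ± 108 (SD, n = 5) at 0%, 2070 ± 1050 at 2%, 3503 ± 1919 at 5%, and 2427 ± 133 at 10% RPS. Against 0% RPS the fitted level was 2.08-fold at 2% (log2 fold change 1.05, SE 0.35), 3.51-fold at 5% (1.81, SE 0.34), and 2.44-fold at 10% (1.28, SE 0.35). The 3 differences share the same 5 control libraries. Their SEs are alike because 1 spread was fitted over the 4 diets. In fits of only the 2 diets compared, the SE was 0.26 at 2%, 0.40 at 5%, and 0.09 at 10%. In order of the group means the diets stood 0, 2, 10, and 5%. The 2% and 10% means differed by less than the SD of the 2% group, and the 10% and 5% means differed by less than the SD of the 5% group. From 5% to 10% the log2 difference was -0.53 (SE 0.34), with a 95% interval of 0.434- to 1.11-fold. From 2% to 5% it was 0.76 (SE 0.34), with an interval of 1.06- to 2.70-fold, and 3 of the 5 libraries on 5% RPS lay above the highest on 2%. From 2% to 10% it was 0.23 (SE 0.34), with an interval of 0.734- to 1.87-fold.

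A complete separation from the controls was uncommon in the table. All 15 starch libraries exceeded the highest 0% library for 0.0716% of the 12576 genes with any count, which is 9 genes including Mal, and the comparison that chose Mal is the one counted here. The other 8, named after their values were seen, were Akr1b7, AW112010, Gfod2, Gm33424, Lpo, Pcyt1a, Rpp25, and Tmbim4. Of these, Lpo, which encodes the antimicrobial enzyme lactoperoxidase, followed Mal with a Pearson r of 0.79. Within single diets, all 5 libraries lay above the highest control for 0.477% of genes at 2%, 1.46% at 5%, and 1.35% at 10%. By size of fitted rise Mal stood 15th at 2%, 10th at 5%, and 19th at 10% among 11979 genes with a mean of at least 50 normalized counts.

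The spread of Mal between mice of 1 diet was unusual at the middle doses. The SD of log2(normalized count + 1) was 0.16 at 0%, 0.65 at 2%, 0.95 at 5%, and 0.08 at 10% RPS. Only 1.16% of the 11979 genes had a larger SD at 2%, and 0.467% had a larger one at 5%. At 0 and 10% RPS larger SDs were found in 51.4 and 85.9% of genes. Depth did not follow the pattern closely: total counts ran from 20581013 to 35083751, and the r of log2 total count with Mal was 0.18 over the 20 libraries (rho 0.20) and 0.01 for deviations from the diet means. Replicate 5 of the 2% group is 1 of 3 libraries whose label number lies apart from the run of the others. Without it the log2 difference at 2% was 0.71.

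Set beside its relatives, Mal moved up the order of its family while the others stayed close to where they were. Of 27 other members of the MAL and MARVEL group that were listed, 19 were among the genes of the table, each above 50 normalized counts on average. Levels were divided by the length of all annotated exons of a gene, so ranks between genes depend in part on the annotation. Mal had 2824 bases, close to the 2782 of its canonical transcript, while Cmtm4 had 7813 and Ocln 9385. Per kilobase of this length, Mal had 353.0 ± 38.2 normalized counts at 0% RPS and ranked 12th of the 20 genes. At 2, 5, and 10% RPS it had 733 ± 372, 1241 ± 679, and 859.6 ± 47.1 and ranked 4th each time. At 2% Cmtm4 ranked 5th with 716.3 ± 49.9, a difference from Mal well within the SD of Mal. Mall, Mal2, and Syngr2 ranked ahead of it at every diet, with Mall at 3039 ± 600 per kilobase at 0% and 3932 ± 554 at 5%. Among the 12682 genes with a length, 78.2% lay below Mal at 0% and 94.4% lay below it at 5% RPS, shares that rest on the same exon lengths.

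**Figure D2:**
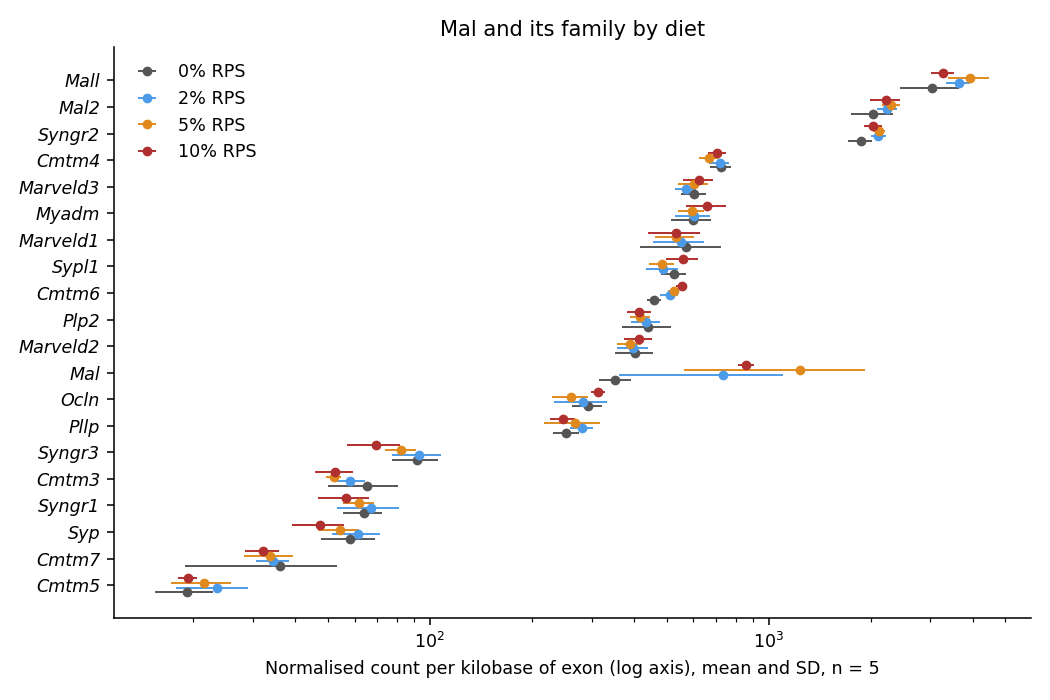
Normalized count per kilobase of exon (horizontal log axis; points are diet means and bars the SD, n = 5) for Mal and 19 family members, ordered by their 0% RPS mean. Mal shifts to the right of its 353.0 at 0% RPS on every starch diet, with wide bars at 2 and 5%; the other genes keep their 4 points close together.

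In the test across all genes (DESeq2 Wald test with Benjamini-Hochberg adjustment, threshold 0.05, and a fold of at least 1.5) none of the 19 other family members was changed at 2, 5, or 10% RPS, where 0.0239, 0.438, and 0.917% of all genes were. Cmtm6, a membrane protein that stabilizes the checkpoint ligand PD-L1, passed the adjusted p alone at 5 and 10%. It was 1.14-fold at 5% (adjusted p = 0.012) and 1.21-fold at 10% (adjusted p = 1.7e-05). By edgeR's quasi-likelihood test its adjusted p was 0.115 at 5% and 0.020 at 10%. By the DESeq2 adjusted p alone, a weaker criterion added after the values were seen, 1.9% of genes passed at 5% and 4.69% at 10%. Mall, a raft protein very similar to Mal, averaged 6109 ± 1207 normalized counts at 0% and 7902 ± 1113 at 5%, a log2 difference of 0.37 (SE 0.12, adjusted p = 0.061). At 10% its difference was 0.11 (SE 0.12, adjusted p = 0.64). Mal2, which works in transcytosis to the apical membrane, differed by 0.17 (SE 0.09, adjusted p = 0.33) at 5%. Pllp (plasmolipin), Plp2, the tight-junction proteins Ocln, Marveld2, and Marveld3, and the vesicle proteins Syp, Sypl1, Syngr1, and Syngr3 also stayed short of the threshold at each dose, as did Marveld1, Myadm, Cmtm3, Cmtm4, Cmtm5, Cmtm7, and Syngr2. The median log2 difference over the 19 was 0.01, -0.06, and 0.001 at 2, 5, and 10%, beside -0.01, -0.01, and 0 for all genes tested.

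The neighbors of Mal on chromosome 2 showed smaller differences between diets. Mrps5, a subunit of the mitochondrial ribosome 26353 bases away, averaged 1353 ± 135 normalized counts at 0% and 1458 ± 79.1 at 5% RPS, and its r with Mal was 0.33. Zfp661, a zinc finger gene 46128 bases away on the same side, had an r of -0.45 and averaged 196.8 ± 18.2 at 0% and 172.4 ± 14.5 at 5%. On the other side, Mall lay 47691 bases away with an r of 0.70. None of these 3 passed the test at any dose, their adjusted p values at 5% being 0.46 for Mrps5, 0.45 for Zfp661, and 0.061 for Mall.

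The genes whose level followed Mal most closely across libraries were led by a secreted factor, a purine enzyme, and a pair of antimicrobial lectins. Likeness was the Pearson r of log2(normalized count + 1) with Mal over the 20 libraries, for 11978 genes with a mean of at least 50 normalized counts. The points share diets and, where cell makeup varied, tissue composition, so r is given as a description. The 10 highest were Fam3b (0.92), Gda (0.91), Reg3g (0.91), Reg3b (0.90), Dbnl (0.89), Lgmn (0.89), Prr13 (0.89), Ly6a (0.88), Zdhhc3 (0.88), and Prss27 (0.88), with Rnf19b next at 0.88. Their Spearman rho ran from 0.80 to 0.93, and their r without the 2 libraries farthest from the Mal median, replicates 2 and 3 of the 5% group, ran from 0.80 to 0.91. Over the 15 starch libraries alone, an alternative chosen after seeing the data, their r ran from 0.83 to 0.92, and 2 of the 10 (Reg3g and Reg3b) were among the 10 highest there too.

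Fam3b, which encodes a secreted protein of the FAM3 family, went from 3356 ± 303 normalized counts at 0% RPS to 4779 ± 768 at 5% and 4390 ± 369 at 10%. At 5% its libraries held 4649, 5376, 5720, 3842, and 4309, the last 2 again the lowest, and all 5 lay above the highest control at 3735. Gda, the guanine deaminase that turns guanine into xanthine, averaged 2144 ± 388 at 0% and 5070 ± 2092 at 5%. Its 5% libraries held 5085, 7121, 7194, 2889, and 3061. In both genes replicates 4 and 5 thus lay below replicates 1 to 3, as for Mal. For Gda the 2 sets stood well apart, while for Fam3b they ran into each other without a clear gap. Both genes were picked for their likeness to Mal over these same libraries, so a shared order was to be found.

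Reg3b, a secreted lectin of the intestinal epithelium that acts on bacteria, showed the widest range. On 0% RPS its libraries held 2114, 553, 8324, 2261, and 1095 normalized counts, and on 5% they held 113614, 114161, 120543, 8941, and 19347. At 2% RPS replicate 5 held 127115, the highest of all 20, while replicate 3, the lowest starch library for Mal, held 1723. On 10% RPS, where Mal was tight, Reg3b still ran from 25929 to 71968. Reg3g, its relative with activity against Gram-positive bacteria, ran from 128 to 2362 at 0% and from 1425 to 21349 at 5% RPS. Reads of the Reg3 genes could be divided among near-identical relatives, and the handling of such reads is not given in the sources used here.

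The remaining genes of the 10 ranged widely in the size of their difference. Lgmn, the lysosomal asparaginyl endopeptidase, averaged 2302 ± 242 at 0% and 3679 ± 871 at 5%, and Ly6a, the surface antigen Sca-1, 2254 ± 277 and 5121 ± 2841. Prss27, a serine protease, averaged 58.1 ± 27.2 and 188 ± 118, a fold of 3.22. Dbnl, an actin-binding adaptor, and Zdhhc3, a palmitoyltransferase of the Golgi, differed by 1.20- and 1.13-fold at 5% while keeping r of 0.89 and 0.88. Prr13 differed by 1.46-fold.

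**Figure D3:**
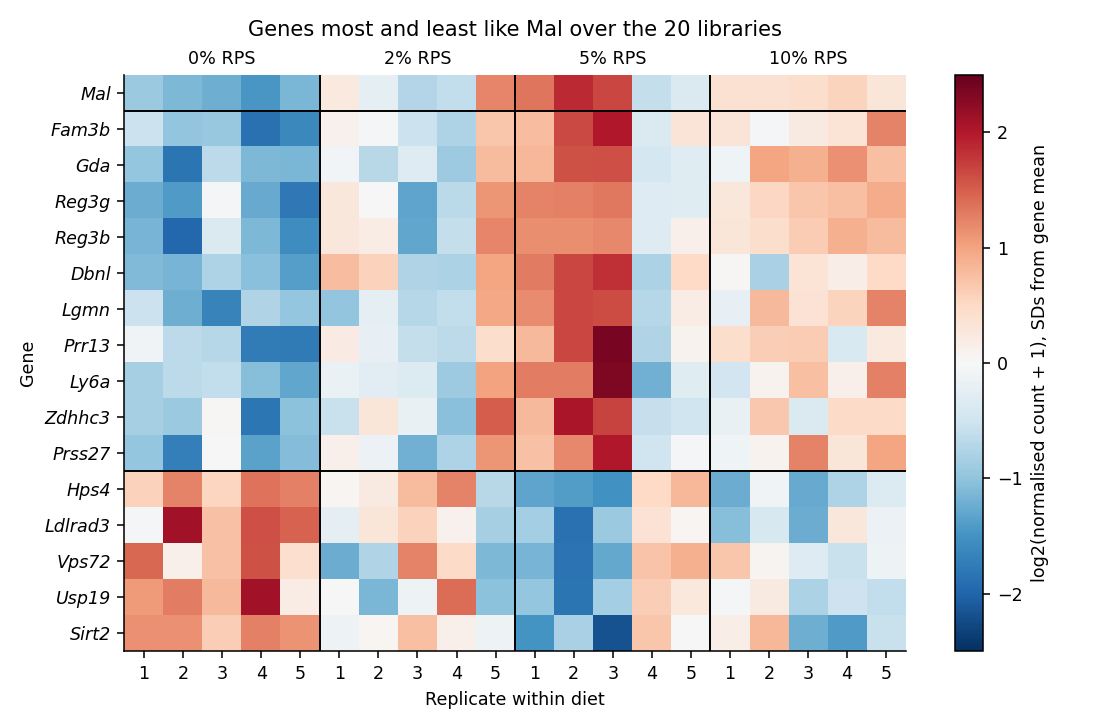
Level of Mal, the 10 genes with the highest r, and the 5 with the lowest r in each of the 20 libraries; color gives log2(normalized count + 1) in SDs from the gene's mean, libraries stand by diet and replicate. In the upper block replicate 5 of the 2% group and replicates 1, 2, and 3 of the 5% group are among the redder libraries. Some 10% libraries are as red or redder in single rows, such as replicates 2, 3, and 4 for Gda. Replicates 4 and 5 of the 5% group are paler than replicates 1, 2, and 3, and the lower block leans the opposite way.

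At the other end, Hps4 ran against Mal with an r of -0.91. It encodes a subunit of the BLOC-3 complex of lysosome-related organelles, and it averaged 906 ± 40.3 normalized counts at 0%, 764.3 ± 99.0 at 5%, and 747.1 ± 44.0 at 10% RPS. In the 5% group it held 699, 694, and 684 in replicates 1 to 3 and 856 and 888 in replicates 4 and 5. Next came Ldlrad3 (-0.86), a membrane protein of the LDL receptor family, Vps72 (-0.84), a chromatin protein of the histone H2A.Z pathway, Usp19 (-0.83), a deubiquitinase, and Sirt2 (-0.83), a protein deacetylase. At 5% RPS these 4 stood at 0.81- to 0.93-fold of the control. An r of -0.7 or less was found for 101 genes.

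**Figure D4:**
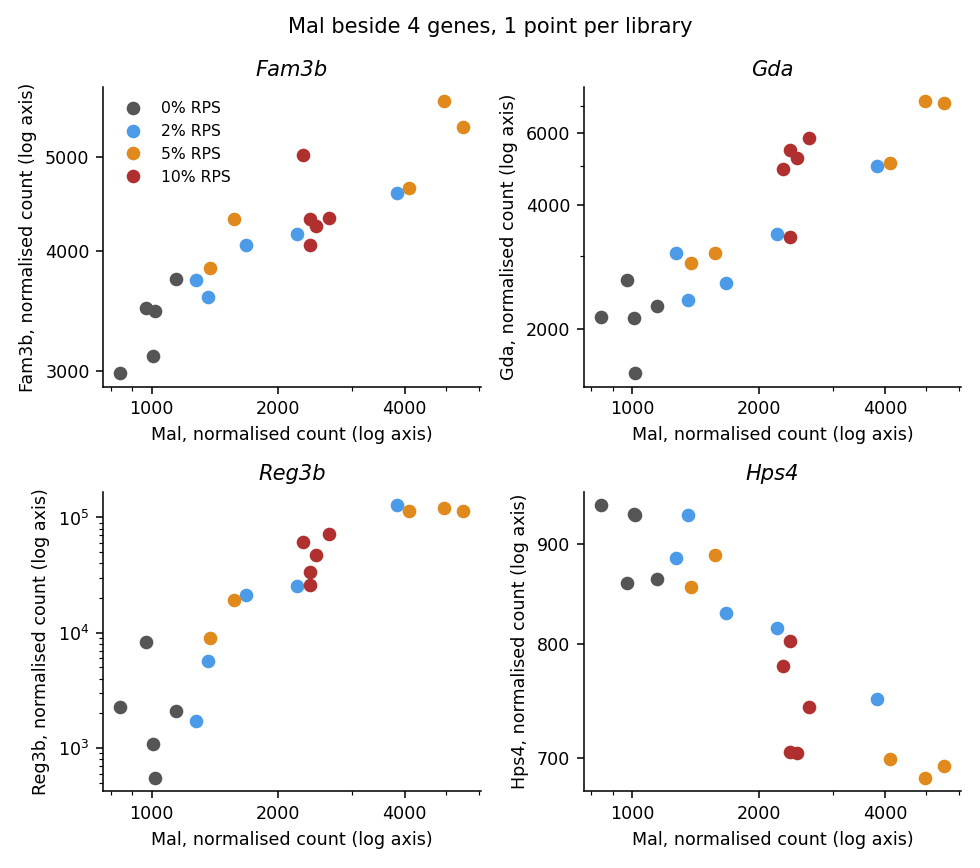
Normalized count of Fam3b, Gda, Reg3b, and Hps4 (vertical log axes) against that of Mal (horizontal log axis), 1 point per library colored by diet. Fam3b, Gda, and Reg3b climb with Mal (r 0.92, 0.91, and 0.90) and Hps4 falls (-0.91); the 4 libraries with the most Mal are 3 of the 5% group and 1 of the 2% group.

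In all, 233 genes, 1.95% of those compared, had an r of 0.7 or more with Mal, beside a median r of -0.02 over all. Just inside that limit were Ykt6 and Pold2 (both 0.70) and just outside it Mall and Fam136a (both 0.70). Because a shared difference between diets alone gives a high r, r was also taken on deviations from the diet means. There 140 genes, or 1.17%, reached 0.7, and 69 genes reached it both ways, 29.6% of the first set and 49.3% of the second. All 10 of the closest genes did so, with within-diet r of 0.77 to 0.84.

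The 5 highest within-diet values belonged to Rpp30 (0.85), a subunit of ribonuclease P, Rpa1 (0.85), which binds single-stranded DNA, Nup85 (0.85), a nuclear pore protein, Slc1a1 (0.84), a glutamate transporter, and Gda (0.84). The first 3 hardly differed between diets: Rpa1 averaged 1157 ± 65.0 at 0% and 1193 ± 231 at 5%, and its r over all libraries was 0.59. Slc1a1 held 571, 492, and 552 in replicates 1 to 3 of the 5% group and 293 and 313 in replicates 4 and 5. Without replicate 4 of the 5% group, 51 genes in place of 140 reached a within-diet r of 0.7, and without replicate 5 of the 2% group 87 did.

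Of the gene lists set beside Mal, the antimicrobial response of the epithelium followed it most closely. Of its 29 genes 23 were in the table. Their median r was 0.74, and 14 reached 0.7, beside 1.95% of all genes compared. The r of their summed level with that of Mal was 0.94 (rho 0.96, within diets 0.90). The sum ran from 218536 to 234046 normalized counts at 0%, from 236586 to 413812 at 2%, from 240137 to 434663 at 5%, and from 293478 to 371799 at 10% RPS. It weighs each gene by its count, and Reg3b alone ran from 553 to 127115 over the 20 libraries. The r of the sum therefore largely repeats that of Reg3b, which was already picked for its high r with Mal. The median within-diet r of the 23 genes was 0.60. At 5% and at 10% RPS 10 of the 23 were higher by the test across all genes, and none was lower, where 0.438 and 0.917% of all genes were changed in either direction. By edgeR's quasi-likelihood test 1 and 5 were higher, beside 7 and 40 called among the 12366 genes it tested. The list was chosen with results of these samples known, and it holds Reg3b and Reg3g, which were picked for their r. It is therefore no independent evidence of its direction or of its likeness to Mal.

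Within that list, Duox2 and its maturation factor Duoxa2, which make hydrogen peroxide at the epithelial surface, had r of 0.82 and 0.77. Duox2 rose from 2438 ± 938 at 0% to 5780 ± 2461 at 5% (log2 1.25, SE 0.31, adjusted p = 0.012) and 5818 ± 1095 at 10% (1.25, SE 0.31, adjusted p = 0.0052). Fut2, the fucosyltransferase that decorates surface glycans, had an r of 0.84 and rose at both doses, by 0.81 on the log2 scale each time. Trim15 (r 0.85) and Trim40 (r 0.79), members of the TRIM family, rose at 5%. The tested difference of Trim15 was 1.39 at 5% (SE 0.35, adjusted p = 0.014) and 0.70 at 10% (SE 0.35, adjusted p = 0.26). Lypd8l (0.38), a relative of a flagella-binding protein, and Ido1 (0.43), an enzyme of tryptophan breakdown, had their highest mean on 10% RPS and followed Mal loosely. Reg3a, Duoxa2, and Lpo rose at both doses and Casp4 at 10%.

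Markers of the surface colonocyte, the absorptive cell at the top of the crypt, had a median r of 0.43 over 28 genes. Plac8 (0.87), Ms4a8a (0.85), Clca4b (0.83), and Scnn1b (0.83) led. Scnn1b, a subunit of the sodium channel ENaC, rose from 169.6 ± 29.7 at 0% to 326.2 ± 74.6 at 5% (log2 0.94, SE 0.20, adjusted p = 0.0019) and 292.0 ± 74.2 at 10% (0.79, SE 0.20, adjusted p = 0.0082). In all 3 of the 28 were higher at 5% (Clca4b, Plac8, Scnn1b) and 2 at 10% (Ceacam1, Scnn1b). Of all genes 0.438 and 0.917% were changed in either direction. With edgeR 0 and 1 of the 28 were called, beside 7 and 40 of the 12366 genes it tested. The defining markers split: Krt20 had an r of 0.74, Car1 0.42, and Guca2a 0.06, while Slc26a3 and Aqp8 stood at -0.05 and -0.11. The summed level of the list ran from 541762 to 867218 at 0% and from 808065 to 1038840 at 5% RPS, and its r with Mal was 0.63. Its part in the level of Mal was not tested.

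For the apical transport and raft list, the machinery Mal is known to work with, the median r was 0.14 over 33 genes. No member was changed by both criteria at any dose. By the adjusted p alone 2 of 33 were higher at 5% and 7 at 10%, by 1.16- to 1.37-fold, and none was lower. Of all genes 1.9% passed that criterion at 5% and 4.69% at 10%, in either direction. The 7 were Cdc42, Ezr, Lgals9, Prom1, Rab11a, S100a10, and Sptlc2. Cdc42, a polarity GTPase (r 0.78), and Rab11a, a GTPase of recycling endosomes (0.72), were the closest to Mal. The raft scaffolds Flot1, Flot2, and Cav1 had r of -0.17, -0.10, and -0.37, and Inf2, a formin linked to MAL transport, had -0.02.

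The type I interferon list, genes switched on by interferon signaling, had a median r of 0.25 over its 31 members with a mean of at least 50. Zbp1, a sensor of Z-form nucleic acid (0.82), and Parp9 (0.72) were highest. Zbp1 rose at both doses, from 230.1 ± 62.4 at 0% to 487 ± 181 at 5% (log2 1.08, SE 0.29, adjusted p = 0.020) and 477 ± 143 at 10% (1.05, SE 0.29, adjusted p = 0.014). At 10% Irf7, a master regulator of interferon genes (1.23, SE 0.20), and Ifit1 (0.67, SE 0.21) also rose, with r of 0.29 and 0.45, so that 1 of 32 passed at 5% and 3 at 10%, beside 0.438 and 0.917% of all genes. By edgeR 0 and 1 passed, beside 7 and 40 of the 12366 genes it tested.

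Other cell types in which Mal is known gave mixed values. For the T cell list 2 of 16 genes were in the table and the others were not analysed here; the kinase Lck had an r of 0.57. Of the Schwann cell, glia, and myelin list 9 of 17 were present with a median r of 0.06; Cnp was the highest at 0.58, and the glial filament Gfap rose at 10% (0.61, SE 0.16, adjusted p = 0.0080) with an r of 0.39, a call that edgeR did not make. Of the stratified epithelium list 9 of 28 were present. The median r over the 7 with a mean of at least 50 was 0.52, and within diets it was 0.12. Prss27, already picked for its r with Mal, rose at 5%. At 10% Csta2, Prss27, Sprr2a2, and Upk1b rose. These were 1 and 4 of 9, beside 0.438 and 0.917% of all genes. By edgeR 0 and 1 of the 9 were called, beside 7 and 40 of the 12366 genes it tested. Without 0% RPS replicate 2 the counts were 3 and 3, where 104 and 201 genes were called in the whole table. Krt17 ran the other way, at 0.50- and 0.54-fold with an r of -0.47, and missed the threshold (adjusted p = 0.19 and 0.21). Of the genes called at 10% the other 3 had r of 0.63 (Csta2), 0.52 (Sprr2a2), and 0.63 (Upk1b). The level of Csta2 was low, 19.0 ± 7.9 normalized counts at 0% and 57.9 ± 17.8 at 10% RPS.

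General epithelial markers had a median r of 0.22 over 12 genes, led by Elf3 (0.72) and Cldn7 (0.62), and none was changed by both criteria. Goblet cell markers had a median of 0.33 over 10 genes (highest Spink4 at 0.49 and Agr2 at 0.46), and crypt and cycling markers 0.19 over 13 (highest Pcna at 0.69 and Top2a at 0.63), with no member changed by both criteria in either list. All 10 goblet genes lay above the control mean at each dose. At 2, 5, and 10% so did 12, 11, and 12 of the 12 general epithelial markers and 1, 0, and 0 of the 10 smooth muscle markers. Over all genes tested the median log2 difference was -0.01, -0.01, and 0 at these doses. Genes of 1 list can vary together with tissue composition, so these are not counts of independent genes. Without 0% RPS replicate 2 the goblet list had 1 call at 5% and 4 at 10%, where 104 and 201 genes were called in the whole table. Smooth muscle markers leaned the other way, with a median of -0.20 over 10 genes, the highest being Synpo2 at -0.16 and Actg2 at -0.18. Their sum ran from 153687 to 326895 at 0% and from 141785 to 215768 at 5% RPS, its r with Mal was -0.23, and within diets it was -0.003. No smooth muscle marker was changed at any dose.

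**Figure D5:**
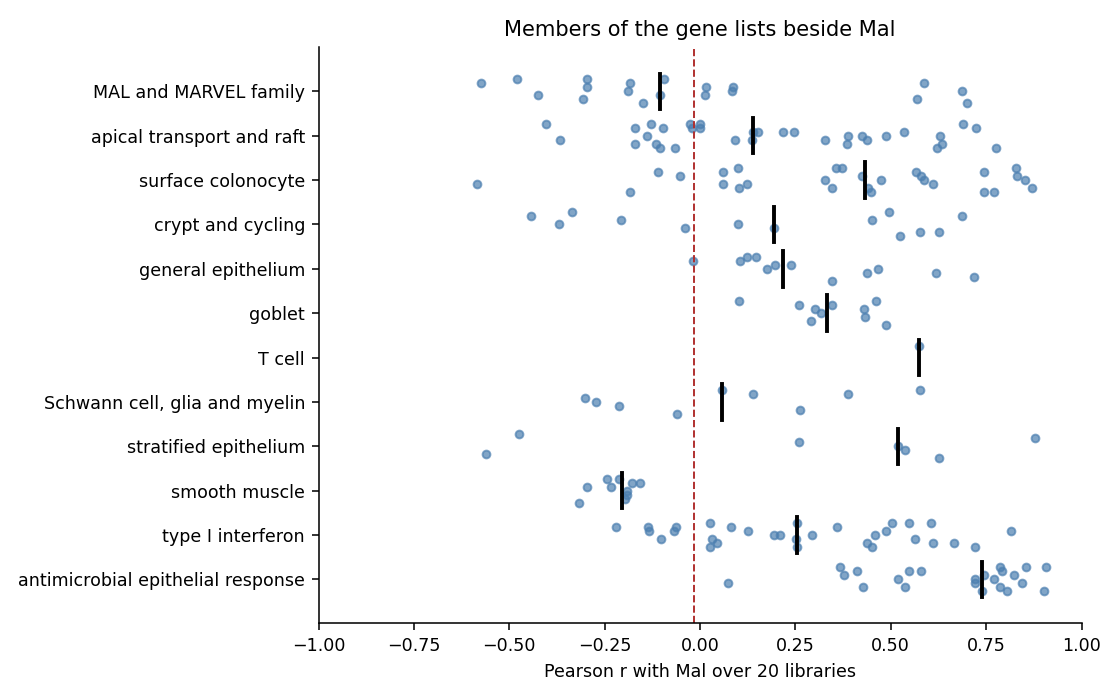
Pearson r with Mal over the 20 libraries (horizontal axis) for members of 12 gene lists with a mean of at least 50 normalized counts; each point is 1 gene, black bars are list medians, and the dashed line is the median of all genes compared. The antimicrobial list lies farthest to the right with a median of 0.74, the smooth muscle list lies left of 0, and the MAL and MARVEL family is spread on both sides with a median of -0.10.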

How the data were processed

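RNA from a segment of the PC of 20 mice was sequenced as stranded single-end mRNA libraries. Per the study's methods, the authors trimmed low-quality bases, removed reads with several ambiguous bases, and aligned and counted the rest in CLC Genomics Workbench on GRCm39. The deposited values are raw counts of reads for each Ensembl identifier, neither normalized nor pooled. The annotation, the use of strand, and the handling of reads that match several places are not given in the sources used here. Diets came from the treatment labels. Replicate numbers follow accession order and pair nothing; the labels name no cage or litter.

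Gene names and coordinates were taken from GENCODE M39, in which 12682 of 12701 identifiers were found. DESeq2 (version 1.42.0) in R (version 4.3.3) fitted the 20 libraries together, with no term besides diet, and all adjusted p values are its own unless edgeR (version 4.0.16) is named. Calls needed a Benjamini-Hochberg adjusted p at or under 0.05 and a fold, not shrunken, of at least 1.5. Correlations used log2(normalized count + 1) with a minimum mean of 50. The scripts were tested on simulated data. The gene and the 12 lists were chosen with earlier results of these data known. Named were Mal, the 10 highest and 5 lowest r, the 5 highest within-diet r, 2 neighbors on each side (1 of the 4 is not reported here), family members reaching a mean of 50, and in other lists the changed members and the 2 with the highest r; further genes were named after their values were seen. Upstream sequence was read from GRCm39. Alternatives were TMM scaling, edgeR, filters, rank correlation, other transformations, and leaving out single libraries.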

Additional observations from a re-analysis of the deposited data

Results flagged for a closer look

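Within each diet, a library was set apart when its gap to the nearest of the other 4 made up more than 0.71 of the range of the group (Dixon's rule). Mal itself was not set apart in any diet. Among 164 groups of 5 libraries, over Mal and the named genes, 9 were, where chance marks about 1 in 20. In 2% RPS replicate 5, Reg3b stood at 127115 normalized counts (others 1723 to 25600), Reg3g at 14926 (279 to 3871), and Cmtm7, a family member, at 160.1 (207.7 to 211.2). In 0% RPS replicate 3, Reg3b stood at 8324 (553 to 2261), Reg3g at 2362 (128 to 316), and Sirt2 at 2002 (2093 to 2116). In 0% RPS replicate 2, Cmtm7 stood at 384.2 (148.1 to 181.4) and Myadm at 6400 (4678 to 4925). In 10% RPS replicate 5, Fam3b stood at 5021 (4050 to 4325). Causes were not tested.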

How the results depend on the processing

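With 1 library left out, the log2 difference of Mal was 0.71 to 1.19 at 2% RPS. It was 1.59 to 2.02 at 5% and 1.23 to 1.34 at 10%. Its direction held under every alternative run. That outcome was all but fixed, because Mal was chosen for this difference and every starch library lay above every control. Counts of changed genes, 3, 55, and 113 at 2, 5, and 10% RPS, depended on the tool and on single mice. With edgeR they were 0, 7, and 40 (genes with an unadjusted p under 0.05 in DESeq2 numbered 1093 at 2%). Without the 3 libraries whose label numbers lie apart 67 were called at 10%. Those libraries are 2% RPS replicate 5 and 10% RPS replicates 4 and 5, so the 10% group was also smaller in that fit. Leaving out 1 library gave 1 to 10, 24 to 104, and 62 to 201. The count at 10% was 201 without 0% RPS replicate 2, 67 without replicate 5 of that group, and 68 and 62 without 10% RPS replicates 3 and 5. At 5% it was 104 and 94 without 0% RPS replicates 2 and 3, 24 without replicate 4 or 5, 34 without 5% RPS replicate 1, and 25 without replicate 2 or 3. At 2% it was 7, 5, 10, and 1 without 0% RPS replicates 1, 2, 3, and 5 and 8 without 2% RPS replicate 3. Genes with an r of 0.7 or more numbered 148 without the 2 libraries farthest from the Mal median and 183 to 339 when 1 library was left out. The within-diet count was 63 with Spearman's rho and 51 to 204 without 1 library. Without 0% RPS replicate 2, chosen after seeing the data, the antimicrobial list kept counts of 10 and 10, the interferon list had 2 and 5, the stratified epithelium list 3 and 3, the goblet list 1 and 4 in place of 0 and 0, and the Schwann cell, glia, and myelin list 2 at 10%. The causes were not tested. No paired analysis was possible because replicate numbers here are names of libraries and link no mice across diets. With 5 mice a diet, p values set a difference against the spread between these libraries, as fitted over the 4 diets. Depth was not the limit for Mal.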
